A study of Mus musculus with 24 samples.

Results

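A set of 10 immediate-early genes of neuronal activity was followed across 24 arrays of mouse striatum: Fos, Fosb and Fosl2, Jun and Junb, Egr1 and Egr2, Arc, Npas4 and Nr4a1. The genes were taken by name, with every probe that the platform annotation assigns to them, which gave 10 of the 19057 annotated genes and 14 probes. Of these probes 11 lay above the filter on dim probes, and 9 of the 10 genes were tested. The only Nr4a1 probe averaged 6.67 on the log2 scale, below the filter at 7.05, so this gene is given by its values only.

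Immediate-early genes are transcribed within minutes of a stimulus by transcription factors already present in the neuron, without new protein synthesis, and their transcripts are short-lived. FOS and JUN family proteins pair to form the AP-1 transcription factor, EGR1 and EGR2 are zinc finger transcription factors, NPAS4 is a neuron-specific bHLH-PAS factor induced by calcium entry, NR4A1 is an orphan nuclear receptor, and ARC acts at the synapse in the endocytosis of AMPA receptors. In the striatum these genes are widely used as markers of recent neuronal activity and of drug exposure.

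The series compared long-term drinking of morphine or saccharin with the effect of a last injection in C57BL/6J mice aged 6 to 10 weeks. Each group held 6 arrays, 1 mouse per array by the animal numbers in the titles. The first group had drunk morphine and was injected with morphine (20 mg/kg), the next had drunk morphine and was injected with saline (10 ml/kg), and the next had drunk saccharin and was injected with morphine (20 mg/kg). The last had drunk saccharin and was injected with saline (10 ml/kg), received no morphine by either route, and is called drug-naive here. All mice were killed 4 h after the injection, and the drug-naive mice, too, had been injected. The question asked of these genes was whether the drug-naive group stands apart from the 3 groups exposed to morphine.

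The arrays lay on 6 chips, each with 1 array of every group, and the median raw intensity ranged between 164 and 543 over the arrays. Markers of medium spiny neurons, the principal cells of the striatum, were present: the mean log2 intensity of 12 tested markers of 15 listed lay between 12.32 and 13.32 on 22 arrays. The 2 exceptions lay on chip 2: replicate 31 of the morphine drinkers injected with morphine and replicate 32 of the morphine drinkers injected with saline, at 9.85 and 9.93. On the same arrays 8 tested markers of cortical projection neurons of 10 listed averaged 11.90 and 11.82, against 9.78 to 11.71 on the 22 other arrays. Results are therefore also given without these arrays. In bulk tissue, fewer cells of a type and less RNA per cell cannot be told apart.

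Promoter windows from RefSeq (assembly GRCm38.p6), 250 bases before to 50 bases after the transcript start, were at hand for 8 of the 10 genes, with 12 windows in all. Windows of 4 genes are shown because Junb, Egr2 and Npas4 were among the genes whose levels ran most like those of Fos over the arrays. Capitals mark TGACG and its reverse complement CGTCA (the core of the cAMP response element bound by CREB), the TATA box letters TATAAA, and the CArG box bound by serum response factor. Egr2 had 5 windows, which overlap in part, and the third is shown.
Fos promoter (chr12:85473640-85473939, plus strand): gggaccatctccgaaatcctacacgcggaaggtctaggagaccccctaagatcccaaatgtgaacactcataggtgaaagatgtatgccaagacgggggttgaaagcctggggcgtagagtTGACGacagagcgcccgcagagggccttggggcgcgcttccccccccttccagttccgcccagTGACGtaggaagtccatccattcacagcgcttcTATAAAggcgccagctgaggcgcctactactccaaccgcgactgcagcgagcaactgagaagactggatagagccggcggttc
Junb promoter (chr8:84978699-84978998, minus strand): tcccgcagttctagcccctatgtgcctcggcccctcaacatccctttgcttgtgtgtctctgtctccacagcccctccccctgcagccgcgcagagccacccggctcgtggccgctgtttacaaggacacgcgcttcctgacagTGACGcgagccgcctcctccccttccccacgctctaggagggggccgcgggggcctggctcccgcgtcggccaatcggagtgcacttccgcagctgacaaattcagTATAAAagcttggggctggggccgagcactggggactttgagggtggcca
Egr2 promoter (chr10:67537619-67537918, plus strand): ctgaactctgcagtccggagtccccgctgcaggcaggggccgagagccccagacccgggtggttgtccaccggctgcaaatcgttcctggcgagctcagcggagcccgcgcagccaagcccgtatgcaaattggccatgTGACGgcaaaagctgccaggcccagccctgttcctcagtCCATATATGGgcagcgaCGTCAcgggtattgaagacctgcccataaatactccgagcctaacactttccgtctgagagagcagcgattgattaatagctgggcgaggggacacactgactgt
Npas4 promoter (chr19:4989922-4990221, minus strand): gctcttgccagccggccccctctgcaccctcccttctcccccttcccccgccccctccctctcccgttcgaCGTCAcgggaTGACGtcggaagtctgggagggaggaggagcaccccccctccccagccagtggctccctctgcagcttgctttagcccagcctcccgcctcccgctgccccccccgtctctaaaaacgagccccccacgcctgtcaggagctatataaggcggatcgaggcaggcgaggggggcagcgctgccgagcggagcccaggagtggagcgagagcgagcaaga
TGACG was found on either strand in the windows of 6 of the 8 genes (Fos, Fosb, Junb, Egr2, Npas4 and Nr4a1), against 20.8% of all 32851 windows of this length. In Fos it began at positions -129 and -66 from the start, in Junb at -106, and in Egr2 at -111 and, on the other strand, at -55. A CArG box was found in Egr2 alone of the 8 genes, at position -72 of the window shown, against 1.63% of all windows. GCGGGGGCG, a site of the EGR proteins, was found in Fosb, Fosl2 and Nr4a1, against 2.91% of all windows, and TATAAA in Fos and Junb, against 13.6%. In Fos TATAAA began at -33, and in Junb at the annotated start itself (position 1), not upstream of it. None of the windows held the full cAMP response element TGACGTCA (1.79% of all windows), TGANTCA of AP-1 (7.81%), GCGTGGGCG of the EGR proteins (0.612%) or AAAGGTCA of NR4A1 (1.51%). Both strands were searched, and TGACG lies within TGACGTCA. A gene was counted if any of its windows matched, whereas the shares are of single windows, so the 2 are not on the same footing for Egr2. These are matches of letters in a short window and not sites shown to be bound.

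The mean of the 3 morphine-exposed groups was first set against the drug-naive group. Of the 9 tested genes, 8 had a difference below 0, with Egr2 at -1.08 and Fos at -0.77 on the log2 scale, but none passed the test (limma, Benjamini-Hochberg over 13748 genes). The lowest adjusted p was 0.413, and the count of 0 of 9 compares with 0.0364% of all genes called. Of the 9 genes, 4 (Egr2, Egr1, Fos and Junb) were lower at an unadjusted p under 0.05, against 2.53% of all genes, and none was higher, against 2.59%. The members were chosen with earlier results of these data known. The shares of all genes here and below are thus given for scale and are no independent support. The 9 differences had a median of -0.38, and over all genes the median was 0.0018 with 49.3% below 0 and the middle 80% between -0.17 and 0.17.

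Among the FOS family genes, Fos was the one with the largest difference. Its log2 intensity had a lowest, median and highest value of 10.13, 10.34 and 10.73 in morphine drinkers injected with morphine, 8.73, 10.58 and 11.56 in morphine drinkers injected with saline, 9.69, 10.37 and 10.59 in saccharin drinkers injected with morphine, and 10.41, 11.21 and 11.40 in drug-naive mice. Of the 6 drug-naive arrays, 5 lay above every array of both morphine-injected groups, a pattern described from the values and not counted over all genes. The morphine drinkers injected with saline held both the lowest and the highest Fos value of the series. Exposed minus drug-naive was -0.77 (SE 0.254, 95% interval -1.30 to -0.23, 18 against 6 arrays, unadjusted p = 0.00744, adjusted p = 0.792 by limma), a level 1.70-fold lower in exposed mice that did not pass the test.

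Fosb, whose truncated product deltaFosB is long-lived and accumulates in the striatum under repeated drug exposure, had a median of 9.98 in both groups of morphine drinkers, 10.12 in saccharin drinkers injected with morphine and 10.32 in drug-naive mice. Its groups overlapped broadly, with exposed arrays between 9.04 and 10.45 and drug-naive arrays between 9.74 and 10.59. The difference was -0.24 (SE 0.141, 95% interval -0.54 to 0.06, limma adjusted p = 0.979). The array annotation does not say which splice form the Fosb probe reads. Fosl2, which encodes the FOS-related antigen FRA2, ran between 9.34 and 10.90 in exposed mice and between 10.00 and 11.08 in drug-naive mice, with a difference of -0.24 (SE 0.175, limma adjusted p = 0.999). Its second probe above the filter gave -0.16, and the third, at a mean of 6.77, was below the filter.

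The 2 JUN genes differed in sign. Junb, an AP-1 partner of FOS, had a lowest, median and highest log2 intensity of 10.40, 10.57 and 10.83 in morphine drinkers injected with morphine, 9.73, 10.85 and 11.52 in morphine drinkers injected with saline, 10.14, 10.66 and 11.15 in saccharin drinkers injected with morphine, and 10.86, 11.07 and 11.35 in drug-naive mice. The highest value in morphine drinkers injected with morphine, 10.83, lay narrowly below the lowest drug-naive value, 10.86. How many of all genes separate these groups in this way was not counted. The morphine drinkers injected with saline held values both below and above the whole drug-naive range. The difference was -0.44 (SE 0.180, 95% interval -0.82 to -0.07, unadjusted p = 0.0235, limma adjusted p = 0.919).

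Jun, which encodes c-Jun, ran between 8.70 and 10.83 in exposed mice and between 8.83 and 9.87 in drug-naive mice. Its 2 highest arrays, 10.83 and 10.61, were replicates 31 and 32, those with low medium spiny neuron markers. The difference was 0.16 (SE 0.191, 95% interval -0.24 to 0.56, limma adjusted p = 0.999), and without these 2 arrays it was 0.0045.

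Both EGR genes had their highest median in the drug-naive group. Egr2 had a lowest, median and highest log2 intensity of 7.95, 9.57 and 10.14 in morphine drinkers injected with morphine, 7.78, 9.57 and 10.59 in morphine drinkers injected with saline, 8.30, 9.25 and 10.42 in saccharin drinkers injected with morphine, and 10.29, 10.42 and 10.52 in drug-naive mice. Of the 18 exposed arrays, 15 lay below the lowest drug-naive array, and the exceptions were 2 morphine drinkers injected with saline and 1 saccharin drinker injected with morphine. The difference was -1.08 (SE 0.275, 95% interval -1.66 to -0.50), a level 2.12-fold lower in exposed mice. Its unadjusted p of 9.76e-04 ranked 31 of 13748 genes and did not pass after adjustment (limma adjusted p = 0.413).

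Egr1, an early transcription factor read in many studies as a marker of neuronal activity, had a lowest, median and highest log2 intensity of 14.20, 14.64 and 15.10 in morphine drinkers injected with morphine, 14.08, 14.53 and 14.89 in morphine drinkers injected with saline, 14.17, 14.51 and 14.96 in saccharin drinkers injected with morphine, and 14.78, 14.97 and 15.20 in drug-naive mice. Of the 18 exposed arrays, 11 lay below the lowest drug-naive array, and none lay above the highest. The difference was -0.41 (SE 0.105, 95% interval -0.63 to -0.19, unadjusted p = 0.00106, limma adjusted p = 0.413), smaller in size than that of Egr2 and with a smaller standard error.

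Npas4 ran between 8.17 and 10.10 in exposed mice and between 9.56 and 10.27 in drug-naive mice, with 7 of 18 exposed arrays below the lowest drug-naive array. Its difference was -0.34 (SE 0.196, 95% interval -0.75 to 0.07, limma adjusted p = 0.979). Its 2 probes disagreed: the dimmer one, with a mean of 7.32 close to the filter, gave 0.12. Against drug-naive mice the dimmer probe gave 0.68 in morphine drinkers injected with morphine. It gave -0.17 in morphine drinkers injected with saline and -0.15 in saccharin drinkers injected with morphine. Arc, the synaptic effector of the set, ran between 10.91 and 13.02 in exposed mice and between 11.80 and 12.71 in drug-naive mice. The groups overlapped, and the difference was -0.38 (SE 0.221, 95% interval -0.85 to 0.08, limma adjusted p = 0.979).

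Nr4a1 was below the filter in the mean. Its log2 intensity had a median of 6.75 in morphine drinkers injected with morphine, 6.36 in morphine drinkers injected with saline, 6.95 in saccharin drinkers injected with morphine and 6.44 in drug-naive mice, with 1 drug-naive array at 9.03 and every other array of the series at or below 7.50. With no filter, over 19057 genes, its difference was -0.12 (SE 0.264, limma adjusted p = 0.999).

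**Figure D1:**
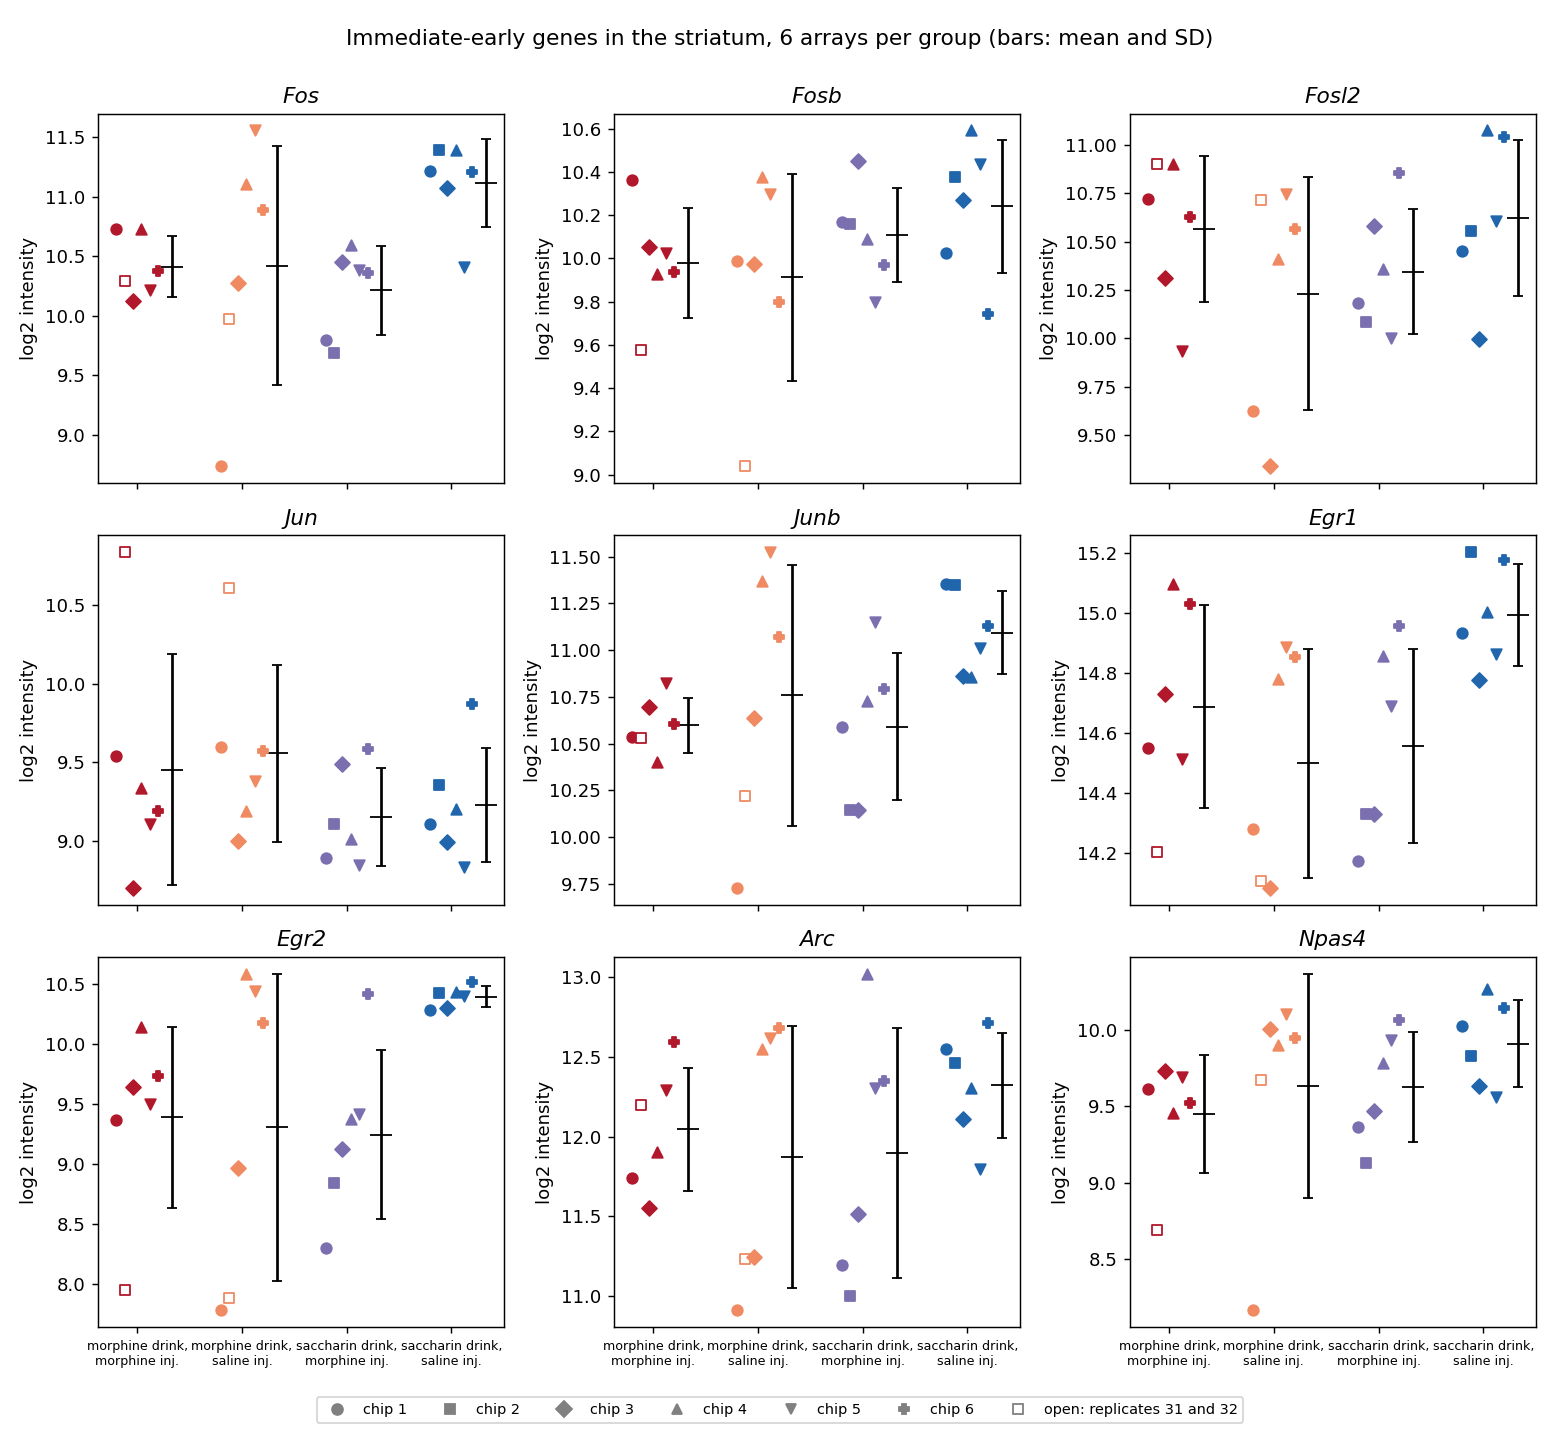
Log2 intensity (vertical axes, which do not start at 0) of the 9 tested immediate-early genes on each array, by group from left to right, with the mean and SD of 6 arrays beside the points and the chip of each array as its symbol. Egr2 lay between 10.29 and 10.52 in drug-naive mice, and 15 of the 18 exposed arrays lay below that range.

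Because each chip held 1 array of every group, the difference could be read 6 times. Egr2 differed by -1.80, -2.21, -1.06, -0.40, -0.62 and -0.41 on chips 1 to 6, and Egr1 by -0.60, -0.99, -0.40, -0.09, -0.16 and -0.23. Both genes were thus below 0 on all 6 chips, with the largest sizes on chips 1 and 2. Fos differed by -1.46, -1.41, -0.79, -0.58, 0.31 and -0.67, and Junb by -1.07, -1.05, -0.37, -0.03, 0.15 and -0.31. For these genes chip 5 was the exception, and its drug-naive array held the lowest Fos value of that group, 10.41. That array, replicate 5, also had the lowest cortical projection neuron marker level of all arrays, 9.78. The part of tissue makeup in its values was not tested. Arc and Npas4 were below 0 on 4 chips each, Fosb and Fosl2 on 4 each, and Jun on 2. These counts of chips were not made over all genes, so they only describe the members.

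**Figure D2:**
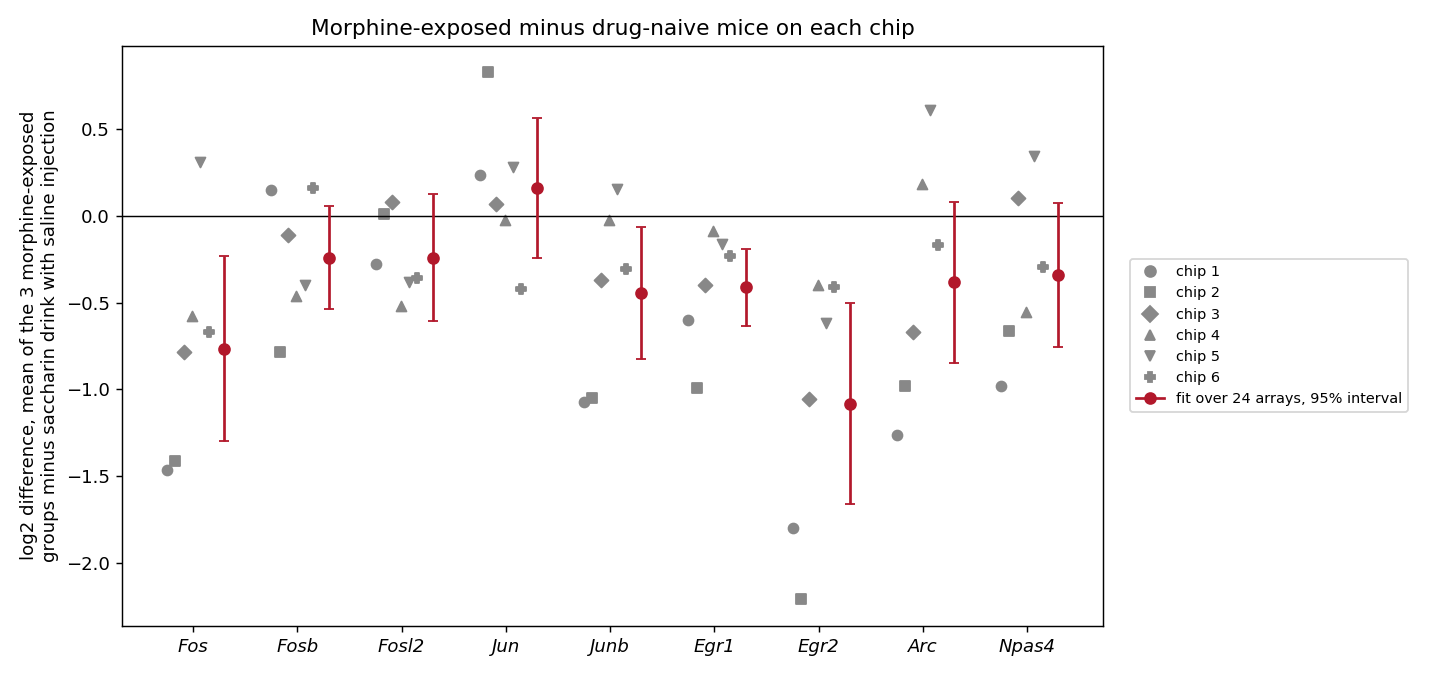
Log2 difference of the mean of the 3 exposed groups minus the drug-naive group (vertical axis) for each gene, with a grey symbol for each of 6 chips and the fitted value over 24 arrays with its 95% interval in red. Egr1 and Egr2 lay below 0 on all 6 chips, a count not made over all genes. The intervals of Fos, Junb, Egr1 and Egr2 lay below 0 before adjustment over all genes.

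Ranks on the chips, which are free of the scale of the values, gave the same 4 genes and 2 more. The drug-naive array was the highest of the 4 on 5 chips for Fos and on 4 chips for Junb, Egr1, Egr2, Arc and Npas4. That is 6 of 9 genes with at least 4 chips, against 3.73% of all genes, and no member had the drug-naive array lowest on at least 4 chips, against 3.05%. Over the 54 pairs of a gene and a chip, the highest array was a morphine drinker injected with morphine 6 times, a morphine drinker injected with saline 12 times, a saccharin drinker injected with morphine 5 times, and drug-naive 31 times. The 9 genes run together across arrays, so these counts are not independent of each other. They also come from the same arrays as the tests above and are no separate evidence.

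Fewer genes showed near separation of the groups, again read from the same arrays. At least 11 of 18 exposed arrays lay below the lowest drug-naive array for 4 of 9 genes, namely Egr2 with 15, Junb with 14, and Fos and Egr1 with 11 each, against 0.989% of all genes. Arc followed with 8 and Npas4 with 7, and Fosl2, Fosb and Jun had 3, 2 and 1. With at least 15 arrays below, Egr2 was 1 of 7 genes, 0.0509% of those tested. The cut-offs of 11 and 15 arrays equal the counts of Fos and Egr1 and of Egr2 themselves. These shares are therefore descriptions and no support for a difference. The opposite pattern, at least 11 exposed arrays above the highest drug-naive array, was met by none of the 9 and by 1.13% of all genes.

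**Figure D3:**
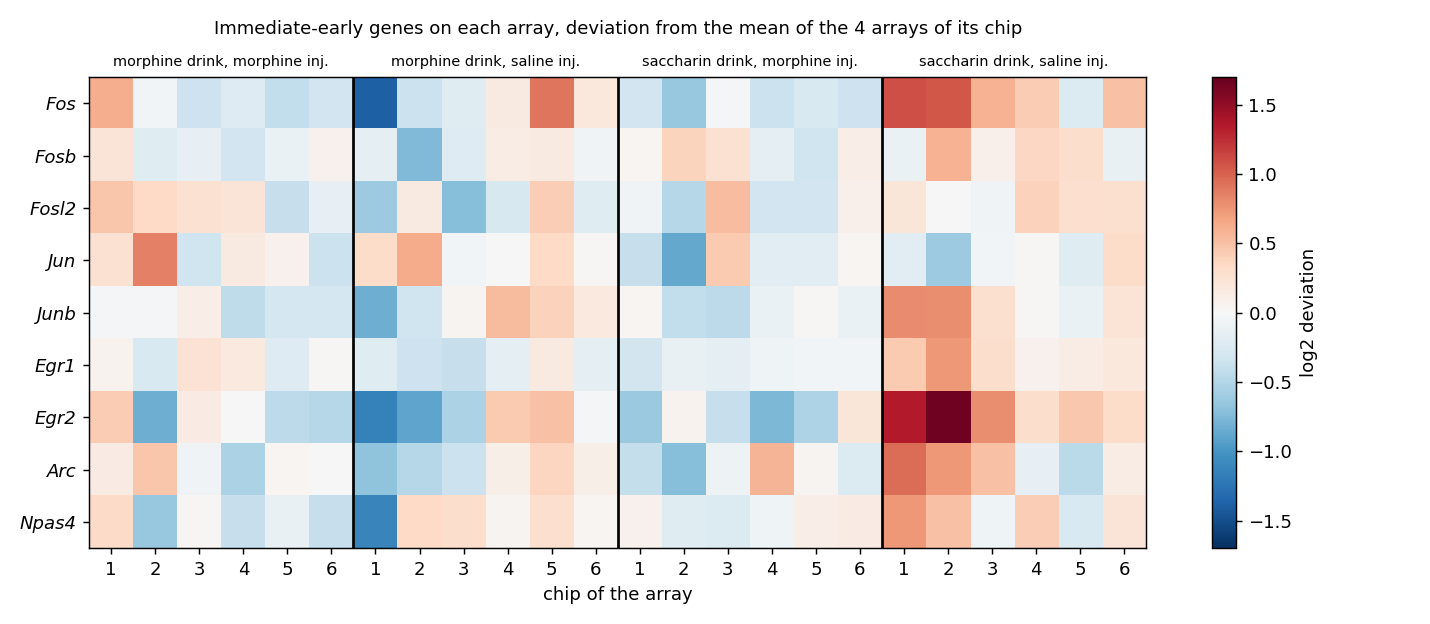
Deviation of log2 intensity from the mean of the 4 arrays of its chip (colour, red above and blue below) for each gene (rows) and array (columns, by group and chip number). The drug-naive columns of chips 1 and 2 are the reddest for Egr2, Fos and Junb, and chip 5 of the same group is below its chip mean for Fos, Jun, Junb, Arc and Npas4.

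The spread between arrays also differed between groups for Egr2. The SD of its log2 intensity was 0.754 in morphine drinkers injected with morphine, 1.28 in morphine drinkers injected with saline and 0.708 in saccharin drinkers injected with morphine, against 0.0886 in drug-naive mice (n = 6 each). The ratio of the drug-naive SD to that of the exposed groups, 0.0934, was the lowest of all 13748 genes, whose median ratio was 0.937. It was chosen for description after its values were seen, and no test was made of it. With arrays scaled to a common median in place of quantile normalization, 75 genes had a lower ratio, and up to 7 had with 1 array left out. Some gene had a lower ratio in 12 of 44 alternatives, so the place of Egr2 at the end of the ranking is not fixed. In morphine drinkers injected with morphine, replicate 31 lay at 7.95, with 9.37 the nearest. Morphine drinkers injected with saline had 7.78, 7.88 and 8.97 on chips 1 to 3, and 10.59, 10.44 and 10.18 on chips 4 to 6. Egr1, Junb and Arc had ratios of 0.488, 0.476 and 0.476, with 7.88%, 7.16% and 7.16% of all genes lower, while Fosb and Fosl2, at 0.915 and 0.891, were near the middle of all genes.

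**Figure D4:**
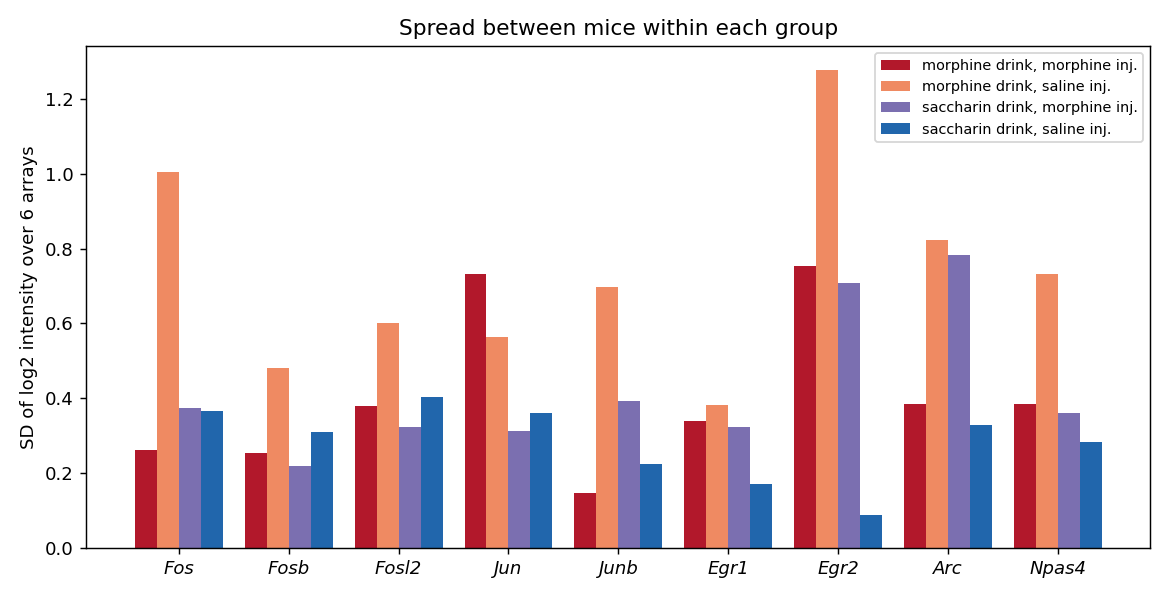
SD of log2 intensity over the 6 arrays of each group (bars from 0) for the 9 genes. The drug-naive bar of Egr2, 0.0886, is the lowest, and the bars of the morphine drinkers injected with saline are the highest for 8 of the 9 genes, with Jun as the exception.

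Each exposed group was then set against the drug-naive group. The 3 comparisons share the drug-naive arrays, so their likeness is no independent evidence and the values are only given side by side. In morphine drinkers injected with morphine none of 9 genes passed (limma, 0.0436% of all genes), and 4 were lower at an unadjusted p under 0.05 (2.24% of all genes). In morphine drinkers injected with saline none passed (0% of all genes), and 3 were lower unadjusted (2.48%). In saccharin drinkers given their first morphine none passed (0.371% of all genes), and 4 were lower unadjusted (3.54%).

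Egr2 differed from drug-naive mice by -1.01 in morphine drinkers injected with morphine, -1.09 in morphine drinkers injected with saline and -1.15 in saccharin drinkers injected with morphine (SE 0.336 each), with limma adjusted p between 0.273 and 0.986. Fos differed by -0.70 in morphine drinkers injected with morphine, -0.69 in morphine drinkers injected with saline and -0.90 in saccharin drinkers injected with morphine (SE 0.311 each, limma adjusted p between 0.461 and 0.995). Egr1 differed by -0.31 in morphine drinkers injected with morphine, -0.49 in morphine drinkers injected with saline and -0.44 in saccharin drinkers injected with morphine (SE 0.129 each, limma adjusted p between 0.290 and 0.995). These 3 genes were below the drug-naive mean in every exposed group by more than the standard error, and in none of the groups did the adjusted test pass. In morphine drinkers injected with saline, the mean difference over chips 1 to 3 and over chips 4 to 6 was -2.13 and -0.05 for Egr2. It was -1.57 and 0.18 for Fos, and -0.81 and -0.17 for Egr1. The Egr2 means were -1.35 and -0.66 in morphine drinkers injected with morphine, and -1.59 and -0.71 in saccharin drinkers injected with morphine. This split by chip was not tested.

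The remaining 6 tested genes had these values. In morphine drinkers injected with morphine, Junb differed from drug-naive mice by -0.50 (SE 0.220), Npas4 by -0.46 (SE 0.241), Arc by -0.28 (SE 0.271), Fosb by -0.26 (SE 0.173), Fosl2 by -0.06 (SE 0.214) and Jun by 0.23 (SE 0.234). In morphine drinkers injected with saline, with the same standard errors, Arc differed by -0.45, Fosl2 by -0.39, Junb by -0.34, Fosb by -0.33, Npas4 by -0.28 and Jun by 0.33. In saccharin drinkers injected with morphine the differences were -0.50 for Junb, -0.42 for Arc, -0.29 for Npas4, -0.28 for Fosl2, -0.13 for Fosb and -0.07 for Jun. Among the 9 tested genes, by the brightest probe of each, a difference above 0 was thus seen for Jun alone, in both groups of morphine drinkers. None of these 6 genes passed in any group, with adjusted p between 0.616 and 0.995 by limma.

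Setting each other group against the remaining 3 asked whether a group other than the drug-naive one stood apart as much. No member passed in any of these comparisons by limma, against 0.0291% of all genes for morphine drinkers injected with morphine, 0.109% for morphine drinkers injected with saline and 0.32% for saccharin drinkers injected with morphine. At an unadjusted p under 0.05 the counts were 0 of 9 for morphine drinkers injected with morphine (4.53% of all genes), 1 of 9 for morphine drinkers injected with saline (7.32%) and 0 of 9 for saccharin drinkers injected with morphine (9.03%). The single gene was Egr1 at -0.25 (SE 0.105, unadjusted p = 0.0312, limma adjusted p = 0.626). The corresponding drug-naive comparison had 4 of 9 (5.12%). The largest size among these 27 differences was that of Egr2 in saccharin drinkers injected with morphine, -0.45 (SE 0.275). Outside these 27, the dimmer Npas4 probe was 0.78 higher in morphine drinkers injected with morphine (SE 0.288, unadjusted p = 0.0141, limma adjusted p = 0.995). These one-against-rest comparisons are not independent, since each group is also part of the rest for the others, and the difference between them was not tested.

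**Figure D5:**
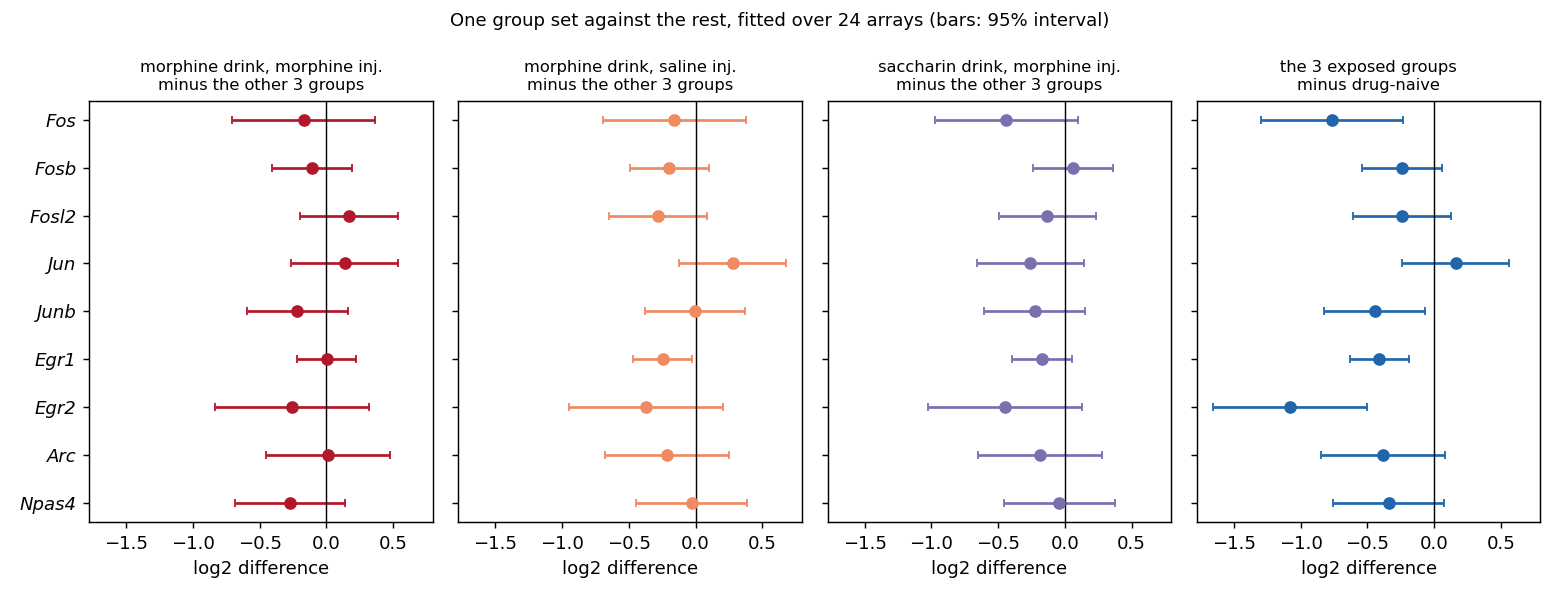
Log2 difference (horizontal axis) of each group from the rest for the 9 genes, fitted over 24 arrays, with 95% intervals before adjustment over genes. In the right panel, exposed minus drug-naive, 4 intervals lie wholly below 0, while in the other panels 1 of 27 does, that of Egr1 in morphine drinkers injected with saline.

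The 3 exposed groups were also compared with each other. The moderated F test called no member (0 of 9, against 0.276% of all genes, and 0 of 9 against 7.91% at an unadjusted p under 0.05), with member p-values between 0.230 and 0.912 before adjustment by limma. Morphine drinkers injected with morphine differed from saccharin drinkers injected with morphine by 0.14 for Egr2 (95% interval -0.56 to 0.85) and by 0.20 for Fos (-0.45 to 0.85), and from morphine drinkers injected with saline by 0.08 for Egr2 (-0.62 to 0.79) and by -0.0082 for Fos (-0.66 to 0.65). These intervals reach sizes as large as most of the differences from drug-naive mice, so equal levels are not shown. No member passed in the single comparisons of exposed groups either (limma). Of all genes, 0% were called in the first of these comparisons and 0.0655% in the second, and 0.553% between morphine drinkers injected with saline and saccharin drinkers injected with morphine. At an unadjusted p under 0.05 the member count was 0 in all 3, against 5.51%, 6.36% and 9.51% of all genes. These counts use the brightest probe of each gene. For the dimmer Npas4 probe, the first comparison gave 0.82 (unadjusted p = 0.0312, limma adjusted p = 0.865). The second gave 0.84 (unadjusted p = 0.0278, limma adjusted p = 0.759), and the third gave -0.019.

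The interaction asked whether the response to the injection, morphine minus saline, differed between morphine and saccharin drinkers. None of 9 genes passed (limma, 0% of all genes), and Egr1 and Egr2 were higher at an unadjusted p under 0.05, 2 of 9 against 2.73% of all genes. For Egr2 the response was 0.08 in morphine drinkers and -1.15 in saccharin drinkers, an interaction of 1.23 (SE 0.476, 95% interval 0.235 to 2.23, unadjusted p = 0.0183, limma adjusted p = 0.935). For Egr1 it was 0.19 in morphine drinkers and -0.44 in saccharin drinkers, an interaction of 0.63 (SE 0.183, 95% interval 0.24 to 1.01, unadjusted p = 0.00306, limma adjusted p = 0.935). Fos had 0.89 (SE 0.440), Fosl2 0.61, Arc 0.60, Junb 0.34, Fosb 0.20, Npas4 0.10 and Jun -0.032, none past the test. The interaction rests on the same drug-naive arrays as the comparisons above.

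Replicate 31, of the morphine drinkers injected with morphine, held the lowest Egr2 and Npas4 values of its group, 7.95 and 8.69, and with replicate 32 it held the lowest Fosb values of the 2 groups of morphine drinkers, 9.58 and 9.04. The mean level of the 12 medium spiny neuron markers ran between 9.85 and 13.19 in morphine drinkers injected with morphine, 9.93 and 13.14 in morphine drinkers injected with saline, 12.63 and 13.32 in saccharin drinkers injected with morphine, and 12.32 and 13.12 in drug-naive mice. The low end in both groups of morphine drinkers is 1 array each. Without replicates 31 and 32, exposed minus drug-naive was -0.92 for Egr2, -0.74 for Fos, -0.42 for Junb, -0.40 for Arc, -0.35 for Egr1, -0.33 for Npas4, -0.32 for Fosl2, -0.14 for Fosb and 0.0045 for Jun. Fos, Junb, Egr1 and Egr2 were again lower at an unadjusted p under 0.05, which is 4 of 9 against 3.15% of all genes in that fit, and none was called (limma, lowest adjusted p 0.471).

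Likeness to Fos was described over the 24 arrays after the mean of each chip was subtracted. Of 13747 other genes, Junb ran most like Fos, with a Pearson correlation of 0.841, followed by Egr2 at 0.804. Arc ranked 8 (0.744), Npas4 12 (0.720) and Egr1 32 (0.664), while Fosl2 (0.528), Fosb (0.364) and Jun (0.0150) ranked 238, 1116 and 6558. Among genes outside the set, the most alike were Dusp1 (0.789), a phosphatase of MAP kinases, Rhoc (0.787), a small GTPase, and Egr4 (0.785), another EGR transcription factor, followed by Sac3d1, Man1b1, Efs, Ticrr and Psmd9 (0.755 to 0.728). The arrays share their chips, tissue makeup and group differences, so these values are descriptions with no test. Without replicates 31 and 32, over 22 arrays, Egr2 (0.860), Egr4 (0.847) and Junb (0.836) headed the ranking.

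Other genes of the activity response were taken as lists by role. Of 15 tested rapid transcription factors outside the set, of 18 listed, none passed in exposed against drug-naive mice (limma), with a median of -0.04 and a range between -0.72 for Atf3, a stress-induced bZIP factor (adjusted p = 0.499), and 0.13 for Csrnp1. Atf3 and Egr4, at -0.52 for Egr4 (adjusted p = 0.519), were the 2 of 15 lower at an unadjusted p under 0.05, against the 2.53% of all genes given above, and none was higher. Egr3, another EGR gene of this list, named after its value was seen, was at -0.04 (limma adjusted p = 0.999). None of 19 tested rapid signalling and effector genes, of 22 listed, passed, with a median of -0.07 and extremes of -0.41 for the kinase gene Sik1 and 0.43 for Arf4, a small GTPase of vesicle transport. These extremes were also the 1 gene lower and the 1 gene higher of the 19 at an unadjusted p under 0.05 (limma adjusted p = 0.963 for Sik1 and 0.734 for Arf4). None of 14 tested late secreted and synaptic genes, of 15 listed, passed, with a median of 0.03 between -0.27 for the receptor gene Gpr3 and 0.43 for Nrn1, which encodes neuritin. Of the 14, 1 was lower at an unadjusted p under 0.05, Syt4, a synaptotagmin named after its value was seen, at -0.16 (limma adjusted p = 0.857). None of 16 tested upstream kinases, transcription factors and coactivators, of 21 listed, passed, with a median of 0.04 between -0.47 for Mrtfb, a coactivator of serum response factor, and 0.35 for Crebbp, a coactivator of CREB. Of the 16, Mrtfb was the 1 lower at an unadjusted p under 0.05, and the 1 higher was Camk2a, a calcium/calmodulin-dependent kinase named after its value was seen, at 0.29 (limma adjusted p = 0.919). Each list's median lay nearer to the 0.0018 of all genes than the -0.38 of the 9 immediate-early genes did.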

How the data were processed

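Biotinylated cRNA of mouse striatum was hybridised to 24 Illumina beadchip arrays, per the labels' protocols. The authors deposited raw probe intensities, linear and not normalized; the sources used here do not say whether background was subtracted before export. A second table the authors deposited holds log2 values. They lay within 0.0351 of quantile-normalized log2 intensities and kept the probe order of each array. The program that made them is not stated there either.

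For this report, intensities went through normexp (offset 50) and quantile normalization, and were log2-transformed, with limma 3.58.1 and R 4.3.3. The platform annotation gave 1 symbol for 34885 of 45281 probes, several for 18 and none for 10378. Kept were probes with 1 symbol whose mean exceeded a log2 intensity of 7.05, the 40th percentile, with the brightest probe per gene, leaving 13748 genes. The linear model (lmFit, eBayes) held group and chip as fixed terms and took in all arrays. Tests are two-sided, with Benjamini-Hochberg adjustment over the 13748 genes of a comparison and a threshold of 0.05. The same model over 22499 probes called no probe of these genes in exposed against drug-naive mice. The model was also tried on simulated data whose spread and chip terms were taken from the fit to these arrays. Each simulated gene had the same spread in all groups, unlike Egr2 here, and no result rests on that trial. How many arrays there are sets the precision: exposed minus drug-naive had a median standard error of 0.116.

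All 10 genes are named, and from each other list the genes that passed or, where none did, its extremes, with the 8 genes outside the set most like Fos. The members and lists were chosen with earlier results of these data known. List and marker levels are means of log2 intensity. Alternatives changed the background step, the scaling, the input (the deposited log2 values), the filter, the probe rule, the chip and position terms, the prior, the weights or the groups fitted, or omitted an array or a chip. Coordinates are given only for the RefSeq windows (GRCm38.p6), as the probe annotation names no build. Plots were made in matplotlib 3.10.9 (Python 3.11.15).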

Additional observations from a re-analysis of the deposited data

Results flagged for a closer look

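Of 76 groups of 6 arrays checked for a value far from the rest of its group, 12 had one by Dixon's criterion, and 6 of these were among the 40 groups of the immediate-early genes. Chance gives about 1 such value in 20 groups. Each value below is a log2 intensity, with the nearest other value of its group beside it.

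Among morphine drinkers injected with morphine, replicate 31 was low for Egr2 at 7.95 (nearest 9.37) and for Npas4 at 8.69 (nearest 9.46). Among morphine drinkers injected with saline, replicate 32 was high for Jun at 10.61 (nearest 9.59), and replicate 30 on chip 1 was low for Npas4 at 8.17 (nearest 9.67). In the drug-naive group, replicate 5 was low for Fos at 10.41 (nearest 11.07), and replicate 10 was high for Nr4a1 at 9.03 (nearest 6.92). The Nr4a1 value is the only one of the 24 that lay above the filter by more than 1 log2 unit.

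The marker lists set apart some of the same arrays. The mean level of medium spiny neuron markers was 9.85 on replicate 31 of the morphine drinkers injected with morphine (nearest 12.62) and 9.93 on replicate 32 of the morphine drinkers injected with saline (nearest 12.68). The astrocyte marker level was 13.18 on replicate 32 (nearest 12.65), 12.50 on replicate 9 of the saccharin drinkers injected with morphine (nearest 12.66) and 12.36 on drug-naive replicate 8 (nearest 12.60). Drug-naive replicate 8 was also low for microglial markers, at 9.24 (nearest 9.54). The part of these marker levels in the values of single genes was not tested; the values of the immediate-early genes without replicates 31 and 32 are given above.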

How the results depend on the processing

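No immediate-early gene was called under any alternative run, of which each comparison had 44 or 45. Of 2007 recomputed member differences, 1980 kept their sign and stayed short of the threshold and 27 changed sign, all of them of differences under 0.46 in size, while every exposed minus drug-naive difference kept its sign. Exposed minus drug-naive ran between -1.22 and -0.86 for Egr2, -0.98 and -0.63 for Fos, and -0.48 and -0.30 for Egr1, with lowest adjusted p of 0.260, 0.417 and 0.174 (limma). Leaving out 1 array moved other genes by over 1.5 times: Arc was -0.21 without drug-naive replicate 1 and -0.58 without drug-naive replicate 5, Npas4 -0.21 without drug-naive replicate 1, and Fosb -0.13 without drug-naive replicate 10. Jun was 0.094 without replicate 31, 0.10 without saccharin drinker 4 injected with morphine, 0.028 without drug-naive replicate 10 and 0.28 without drug-naive replicate 8. The members' median ran between -0.48 and -0.29, the genes lower at an unadjusted p under 0.05 numbered 3 to 6 (4 as reported), and those with the drug-naive array highest on at least 4 chips 4 to 6 (6 as reported).

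The sign changes were as follows, and the cause was not tested. The Jun interaction was 0.034 with scaling to a common median, 0.12 without chip 3, 0.019 without chip 5, and -0.23 to 0.14 with 1 array left out. The Npas4 interaction was -0.084 with array weights, -0.30 without chip 1, and -0.19 to 0.24 with 1 array left out. Against drug-naive mice, Npas4 was 0.11 in morphine drinkers injected with morphine with the mean of its 2 probes, and 0.039 in morphine drinkers injected with saline without chip 1, with -0.41 to 0.017 for 1 array left out. In morphine drinkers injected with morphine, Jun was -0.043 without replicates 31 and 32 and -0.025 without chip 2, and Fosl2 was 0.068 without chip 5, 0.016 without chip 6 and -0.15 to 0.082 with 1 array left out. In saccharin drinkers injected with morphine, Jun was -0.24 to 0.11 with 1 array left out.

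Over all genes, calls numbered 5 as reported and 1 to 8 under the alternatives for exposed against drug-naive, 6 and 1 to 23 for morphine drinkers injected with morphine against drug-naive, and 51 and 10 to 71 for saccharin drinkers injected with morphine against drug-naive. Against the other 3 groups they numbered 4 and 1 to 7 for morphine drinkers injected with morphine, 15 and 3 to 46 for morphine drinkers injected with saline, and 44 and 9 to 58 for saccharin drinkers injected with morphine. Between exposed groups they numbered 9 and 2 to 63 for the 2 injections in morphine drinkers, and 76 and 10 to 94 for morphine drinkers injected with saline against saccharin drinkers injected with morphine. Scaling to a common median moved the median of all genes in the interaction to 0.10. No paired analysis was possible because the animal numbers differ between the groups, so no number pairs animals; the chip, with 1 array of each group, was already a block in the reported fits. For Nr4a1, near background, a difference was not detectable at this signal.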

Other observations

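The markers of 8 other cell types and regions were averaged per array as mean log2 levels, with no test of the differences between groups. Group means in morphine drinkers injected with morphine were 11.25 for cortical projection neurons, 12.80 for astrocytes, 12.28 for oligodendrocytes, 9.47 for microglia, 10.20 for endothelium, 9.28 for choroid plexus, 9.64 for blood, and 8.80 for thalamus, septum and hypothalamus together. The morphine drinkers injected with saline had means of 11.47 for cortical projection neurons, 12.62 for astrocytes, 12.32 for oligodendrocytes, 9.60 for microglia, 10.39 for endothelium, 9.22 for choroid plexus, 9.96 for blood, and 8.80 for thalamus, septum and hypothalamus together. In saccharin drinkers injected with morphine the means were 11.05 for cortical projection neurons, 12.67 for astrocytes, 12.23 for oligodendrocytes, 9.45 for microglia, 10.23 for endothelium, 9.55 for choroid plexus, 9.90 for blood, and 8.83 for thalamus, septum and hypothalamus together. In drug-naive mice the means were 11.03 for cortical projection neurons, 12.60 for astrocytes, 12.42 for oligodendrocytes, 9.54 for microglia, 10.28 for endothelium, 9.10 for choroid plexus, 9.62 for blood, and 8.92 for thalamus, septum and hypothalamus together.

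The 5 genes called in exposed against drug-naive mice were Plin4, which coats lipid droplets (1.83), Sult1a1, a sulfotransferase (0.67), Tsc22d3 (0.59) and Fkbp5 (0.58), both known targets of the glucocorticoid receptor, and Snx24, a sorting nexin (0.40), all higher in exposed mice. Their differences from drug-naive mice were 2.82 for Plin4, 0.93 for Sult1a1, 0.87 for Tsc22d3, 0.76 for Fkbp5 and 0.36 for Snx24 in morphine drinkers injected with morphine. They were -0.39 for Plin4, -0.18 for Tsc22d3, 0.0097 for Fkbp5, 0.012 for Sult1a1 and 0.23 for Snx24 in morphine drinkers injected with saline, and 3.08 for Plin4, 1.09 for Tsc22d3, 1.07 for Sult1a1, 0.97 for Fkbp5 and 0.61 for Snx24 in saccharin drinkers injected with morphine. For Egr2 the values were -1.01 in morphine drinkers injected with morphine, -1.09 in morphine drinkers injected with saline and -1.15 in saccharin drinkers injected with morphine. These comparisons share the drug-naive arrays, and the likeness of their values was not tested.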
